A study of Mus musculus with 12 samples.

Results

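The genes examined here were 35 markers of endothelial and lymphatic identity, taken by mouse symbol from the 55092 features of the expression table, and every one of the 35 had its own row. They were kept in 4 roles: 22 pan-endothelial genes, 3 arterial genes, 6 angiogenic genes, and 4 lymphatic and scavenger genes. RNA-Seq had been performed on the abdominal aorta of 12 males, 3 in each of 4 groups. CCN2fl/fl mice, which carry floxed Ccn2 and no Cre, were infused for 7 days with saline (CFS) or Ang II at 500 ng/kg/min (CFA). CCN2SMCΔ mice, which carry the same floxed gene and Myh11-Cre-ERT2, were infused with saline (CSS) or the same dose of Ang II (CSA). All 4 groups had received 5 doses of tamoxifen at 8 weeks of age and 2 weeks of washout before infusion through mini-osmotic pumps. The Myh11 promoter directs Cre to smooth muscle cells, so the endothelium is not the cell type in which deletion was induced, and the RNA came from the whole aortic wall.

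Endothelial cells line blood vessels and hold a common set of junction proteins, growth factor receptors and transcription factors of the ETS and SOX families. Arterial endothelium adds gap junction proteins and regulators of the Notch and SOX programs, sprouting vessels add genes such as Esm1 and the apelin system, and lymphatic endothelium is specified by Prox1 and grows in response to VEGF-C through Flt4. Several of these genes are also known outside the endothelium, among them Pdpn in fibroblasts, Stab1 in macrophages and Angpt1 in perivascular cells. In bulk tissue, fewer cells of a type and less RNA per cell cannot be told apart.

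The ETS factor Erg and the SOX factors Sox7, Sox17 and Sox18 were themselves members. The 250 bases before a RefSeq transcript start of each gene were therefore searched for a few fixed strings of both families. RefSeq promoter sequences of GRCm38.p6 were matched for 21 of the 35 genes. The RefSeq start was the start of the GENCODE gene span for 10 of the 21, Tek and Pdpn among them, and lay within 100 bases of the start of some GENCODE transcript for 19. That of Emcn lay 11 bases inside its span, and that of Gja5 lay 127709 bases inside its span and 14 bases from the start of another transcript. The entries missing from that table were Angpt1, Angpt2, Aplnr, Cdh5, Ecscr, Esam, Mmrn2, Pecam1, Plvap, Ptprb, Sox17, Sox18, Sox7 and Vwf. Promoters of 4 genes are shown because Gja5 and Tek were lower, and Emcn and Pdpn higher, in CSA than in CFA aortas. Sequences run 5′ to 3′ on the strand of the gene, and capitals mark a match on either strand to AGGAAG or CGGAAG (ETS) or AACAAT (SOX).
Gja5, chr3:97032152-97032401, plus strand: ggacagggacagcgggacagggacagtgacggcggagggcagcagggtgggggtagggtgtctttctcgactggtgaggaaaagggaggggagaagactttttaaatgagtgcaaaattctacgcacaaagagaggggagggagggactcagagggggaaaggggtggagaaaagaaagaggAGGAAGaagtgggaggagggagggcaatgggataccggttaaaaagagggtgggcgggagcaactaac
Tek, chr4:94739039-94739288, plus strand: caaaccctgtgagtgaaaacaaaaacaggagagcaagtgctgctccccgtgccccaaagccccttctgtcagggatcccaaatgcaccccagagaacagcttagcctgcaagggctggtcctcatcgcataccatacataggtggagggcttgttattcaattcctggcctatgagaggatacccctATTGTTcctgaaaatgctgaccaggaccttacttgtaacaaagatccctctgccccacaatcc
Emcn, chr3:137340828-137341077, plus strand: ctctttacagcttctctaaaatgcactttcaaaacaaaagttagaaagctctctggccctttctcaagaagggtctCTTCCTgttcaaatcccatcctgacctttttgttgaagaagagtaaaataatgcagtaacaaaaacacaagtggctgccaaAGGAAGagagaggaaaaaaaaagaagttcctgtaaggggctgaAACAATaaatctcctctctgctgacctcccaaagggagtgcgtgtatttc
Pdpn, chr4:143299565-143299814, minus strand: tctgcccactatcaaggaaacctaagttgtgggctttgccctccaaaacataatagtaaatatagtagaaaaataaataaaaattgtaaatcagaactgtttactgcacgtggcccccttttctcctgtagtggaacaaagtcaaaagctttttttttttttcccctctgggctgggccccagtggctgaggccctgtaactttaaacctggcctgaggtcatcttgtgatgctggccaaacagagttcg

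AGGAAG was found before 10 of the 21 genes (47.6%), namely Apln, Egfl7, Emcn, Eng, Flt1, Gja5, Rasip1, Robo4, Stab1 and Tie1, and before 29.2% of all 27025 promoters of the same length. CGGAAG was found before Stab1 and Tie1, against 13.8% of all promoters, and AACAAT before Emcn and Tek, against 9.65%. Of the strings searched, those of both families stood before Emcn, only an ETS string before Gja5 and only the SOX string before Tek. None of them stood before Pdpn. Other strings of either family, shorter ones included, were not searched. The matches describe letters and not bound sites, and the ETS letters stood before a lower gene (Gja5) and a higher gene (Emcn) alike.

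Values were FPKM, the fragments of a gene scaled to its length and to its library, so levels of different genes can be compared per length. The libraries held 14558580 to 23107811 fragments. The deposited values were 0.986 to 1.08 times the FPKM that these fragments give in the 9 aortas outside CSA and 0.902 to 0.950 times it in CSA, a scaling between libraries whose origin is not given in the sources used here. A gene was tested when its FPKM was at least 1 in at least 3 mice, which 14676 features and 33 of the 35 members were. The exceptions were Apln and Prox1, and each tested member reached that level in at least 7 of the 9 mice outside CSA. A gene was called when its log2 fold change passed 1.5 in either direction and limma on log2(FPKM + 0.1) gave it a Benjamini-Hochberg adjusted p under 0.05. Fold changes are on that log2 scale, which understates the change of low genes. Every mean is given ± SD over n = 3 mice. Ccn2 had a mean of 766 ± 318 FPKM in CFS, 554 ± 106 in CSS, 894 ± 290 in CFA and 328 ± 71.9 in CSA, and the log2 difference of CSA from CFA was -1.41 (limma with Benjamini-Hochberg adjustment, adjusted p = 0.00622). Gene models on either strand share 23.2% of the exonic bases of Ccn2, and strand handling is not given. CSS and CFS overlapped for Ccn2, in whole aorta that holds other cells besides smooth muscle.

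A pair of libraries stood apart from the others of their groups. The library labelled CFS 69 had the lowest FPKM of the 3 CFS mice for 33 of 35 members, including all 22 pan-endothelial genes, and was the highest for Esm1 and Angpt2. In that mouse 20 of 35 members (57.1%) were under 50% of the lower of the other CFS values, against 3.53% of all tested genes. In CSA 03 the deviation of a gene from its group mean had a Spearman correlation of -0.64 with the GC content of its transcripts across 14407 genes, against 0.62 and 0.54 in CSA 01 and CSA 02, and between -0.21 and 0.19 in the other mice. Genes are not independent replicates, and those deviations of the 3 CSA mice are tied to a shared mean. In CSA 03 8 of 35 members (22.9%) were under 50% of the lower of the other CSA values, against 17.6% of all tested genes.

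**Figure D1:**
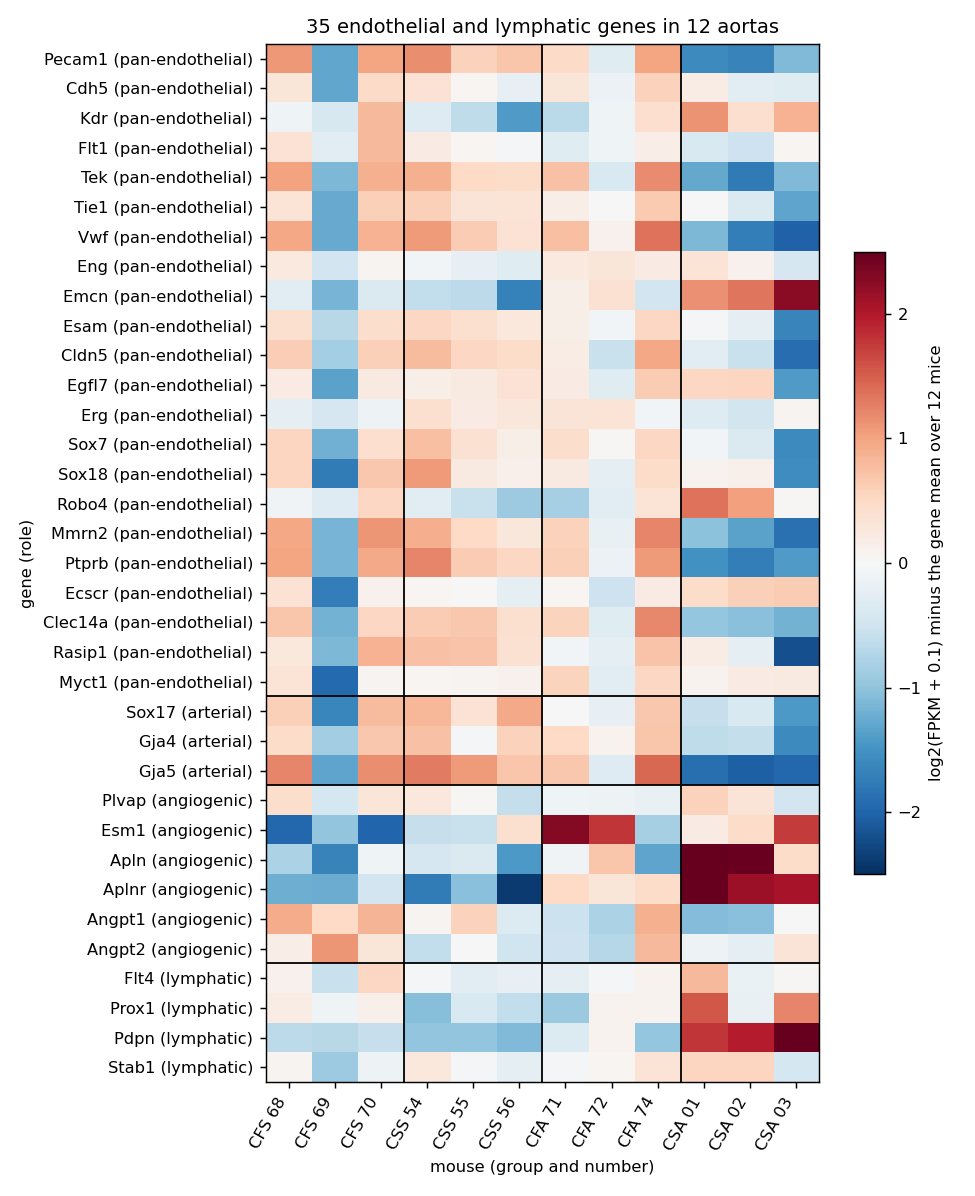
Heat map of 35 genes (rows, with their roles) in 12 aortas (columns, by group and mouse number). Colour gives log2(FPKM + 0.1) minus the mean of the gene over the 12 mice; CFS 69 is blue for nearly the whole pan-endothelial block, while the 3 CSA columns are blue for Pecam1, Tek, Vwf, Mmrn2, Ptprb, Clec14a and Gja5 and red for Emcn, Aplnr and Pdpn.

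The first comparison asked how the endothelial genes differed between genotypes under Ang II (CSA against CFA). Of the 33 tested members, 7 were lower and 3 were higher in CSA, which is 30.3% called, beside 17.2% of all tested genes, 8.95% higher and 8.27% lower. The median log2 fold change of the members was -0.44, beside -0.04 for all tested genes. The calls went in both directions within the pan-endothelial role, where 6 genes were lower and Emcn was higher. Emcn was kept in this role although it is a gene of venous and capillary endothelium. Groups did not overlap for 10 lower and 5 higher members, beside 25.1% and 23.4% of all tested genes.

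Among the pan-endothelial genes, Vwf (ENSMUSG00000001930, chr6:125546774-125686679), which encodes the clotting protein stored in endothelial granules, measured 61.2, 39.1 and 93.2 FPKM in CFA 71, 72 and 74 and 16.7, 10.9 and 8.93 in CSA 01, 02 and 03. The saline aortas had 71.3, 15.2 and 66.6 in CFS 68, 69 and 70 and 76.0, 56.7 and 46.9 in CSS 54, 55 and 56. All 3 CSA mice were below all CFA and CSS mice, while CFS 69 lay within the CSA range. The log2 fold change of CSA against CFA was -2.36 ± 0.54 (SE; limma, Benjamini-Hochberg adjusted p = 0.0051).

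Ptprb (ENSMUSG00000020154, chr10:116275523-116389535) encodes the endothelial phosphatase that acts on the angiopoietin receptor and on VE-cadherin. It measured 40.8, 24.4 and 56.2 FPKM in CFA and 9.37, 8.02 and 9.97 in CSA, with 53.1, 12 and 52.3 in CFS and 63.0, 42.1 and 38.4 in CSS. The 3 CSA values were the lowest of the 12 mice and lay close together, and the next lowest was CFS 69. The log2 fold change was -2.06 ± 0.51 (SE; limma, Benjamini-Hochberg adjusted p = 0.00782).

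Tek (ENSMUSG00000006386, chr4:94739289-94874976) encodes the receptor for angiopoietins, and of the strings searched its promoter above holds only the SOX one. Tek measured 32.8, 15.1 and 45.2 FPKM in CFA and 8.13, 5.72 and 9.13 in CSA. In saline aortas it measured 39.7, 9 and 36.7 in CFS and 36.4, 27.9 and 27.3 in CSS. CSA did not overlap CFA or CSS, and CFS 69 lay between CSA 01 and CSA 03. The log2 fold change was -1.89 ± 0.54 (SE; limma, Benjamini-Hochberg adjusted p = 0.0158). Its relative Tie1, an orphan receptor that pairs with it, had 29.2 ± 7.34 in CFA and 17.3 ± 7.26 in CSA, groups that overlapped (log2 -0.83, limma adjusted p = 0.175).

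Pecam1 (ENSMUSG00000020717, chr11:106654217-106750628), the junctional adhesion molecule used to stain endothelium, measured 131, 75.9 and 187 FPKM in CFA and 31.3, 29.4 and 43.5 in CSA. It measured 199, 38.3 and 188 in CFS and 212, 141 and 153 in CSS. Every CSA mouse was below every CFA and CSS mouse, and CFS 69 was again inside the CSA range. The log2 fold change was -1.84 ± 0.56 (SE; limma, Benjamini-Hochberg adjusted p = 0.0215).

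Mmrn2 (ENSMUSG00000041445, chr14:34375465-34404287), a matrix glycoprotein of the endothelium that binds Clec14a, measured 52.0, 30.9 and 82.1 FPKM in CFA and 17.1, 13.8 and 9.51 in CSA. Clec14a (ENSMUSG00000045930, chr12:58264720-58269290), its lectin partner on the endothelial surface, measured 23.1, 12.6 and 36.0 in CFA and 8.01, 7.53 and 6.87 in CSA. For both genes each CSA mouse was below each CFA mouse, and CFS 69 lay at the level of CSA, with 15.6 for Mmrn2 and 6.84 for Clec14a. By limma with Benjamini-Hochberg adjustment, Mmrn2 had a log2 fold change of -1.95 ± 0.55 (SE, adjusted p = 0.0157) and Clec14a one of -1.54 ± 0.47 (SE, adjusted p = 0.0215), the latter close to the limit of 1.5.

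Emcn (ENSMUSG00000054690, chr3:137341067-137432185), a sialomucin of venous and capillary endothelium whose promoter is shown above, was the only gene kept in the pan-endothelial role that was called higher. It measured 3.91, 4.68 and 2.52 FPKM in CFA and 7.90, 9.11 and 17.3 in CSA, with 2.88, 1.54 and 2.72 in CFS and 2.28, 2.21 and 1.04 in CSS. All 3 CSA values were above the other 9 mice, and CSA 03 was the highest. The log2 fold change was 1.56 ± 0.39 (SE; limma, Benjamini-Hochberg adjusted p = 0.00836).

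The remaining 15 pan-endothelial genes were not called, and their log2 fold changes lay between -1.11 (Cldn5, a tight junction protein) and 1.06 (Robo4, a guidance receptor of endothelium). Cdh5, which encodes VE-cadherin of the adherens junction, measured 48.7, 35.6 and 58.8 FPKM in CFA and 45.1, 33.0 and 32.1 in CSA. Those ranges overlapped, and the log2 fold change was -0.36 ± 0.40 (SE; limma adjusted p = 0.501). Robo4 measured 1.43, 2.14 and 3.33 in CFA and 6.89, 5.43 and 2.67 in CSA, where CSA 03 fell within the CFA range (limma adjusted p = 0.0495, with a fold change under the limit). Kdr, the main signalling receptor for VEGF-A, measured 2.45, 3.67 and 5.36 in CFA and 8.69, 5.37 and 7.29 in CSA, so that the closest pair differed by little (log2 0.92 ± 0.39, limma adjusted p = 0.0809).

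Of the other receptors, Flt1, which binds VEGF and signals weakly, had 3.85 ± 0.642 FPKM in CFA and 3.36 ± 0.741 in CSA, and Eng, the TGF-β co-receptor endoglin, had 62.7 ± 2.41 and 54.3 ± 14.0. Neither passed the limma test (log2 -0.20 and -0.24, adjusted p = 0.561 and 0.406). Among the transcription factors, Erg had 41.8 ± 6.34 in CFA and 30.8 ± 6.01 in CSA (log2 -0.44, limma adjusted p = 0.0526), Sox7 6.27 ± 1.11 and 3.36 ± 1.62 (log2 -1.0, adjusted p = 0.119), and Sox18 38.6 ± 9.15 and 28.5 ± 14.6 (log2 -0.59, adjusted p = 0.489). For Sox18 the mice CSA 01 and CSA 02, at 36.3 and 37.5, were in the CFA range, and CSA 03, at 11.6, was below it.

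Egfl7, a secreted factor whose gene hosts Mir126, showed the same division within CSA, with 31.7 and 32.3 FPKM in CSA 01 and CSA 02 and 8.27 in CSA 03, against 25.8, 18.1 and 34.6 in CFA. Its log2 fold change was -0.31 over all mice and 0.34 without CSA 03, and neither passed the limma test. Esam, a junction protein, was likewise split, at 23.1 and 20.1 in CSA 01 and CSA 02 and 7.44 in CSA 03, as was Rasip1, which acts in lumen formation, at 10.8, 8.02 and 1.98. The GC content of the longest transcript was 57.1% for Egfl7, 53.7% for Esam, 63.6% for Rasip1 and 60.9% for Sox18. The part of the GC-related deviation of CSA 03 in these splits was not tested. Other gene models share 42.9% of the exonic bases of Rasip1 and 11.2% of those of Egfl7, so some of their fragments may belong to a neighbour. Ecscr, a surface protein of endothelial cells, went the other way, with 23.6, 26.1 and 26.7 in CSA, all above 17.7, 12 and 19.8 in CFA (log2 0.65 ± 0.44, limma adjusted p = 0.259). Myct1 had 9.58 ± 2.85 in CFA and 8.68 ± 0.429 in CSA (log2 -0.09, limma adjusted p = 0.896).

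**Figure D2:**
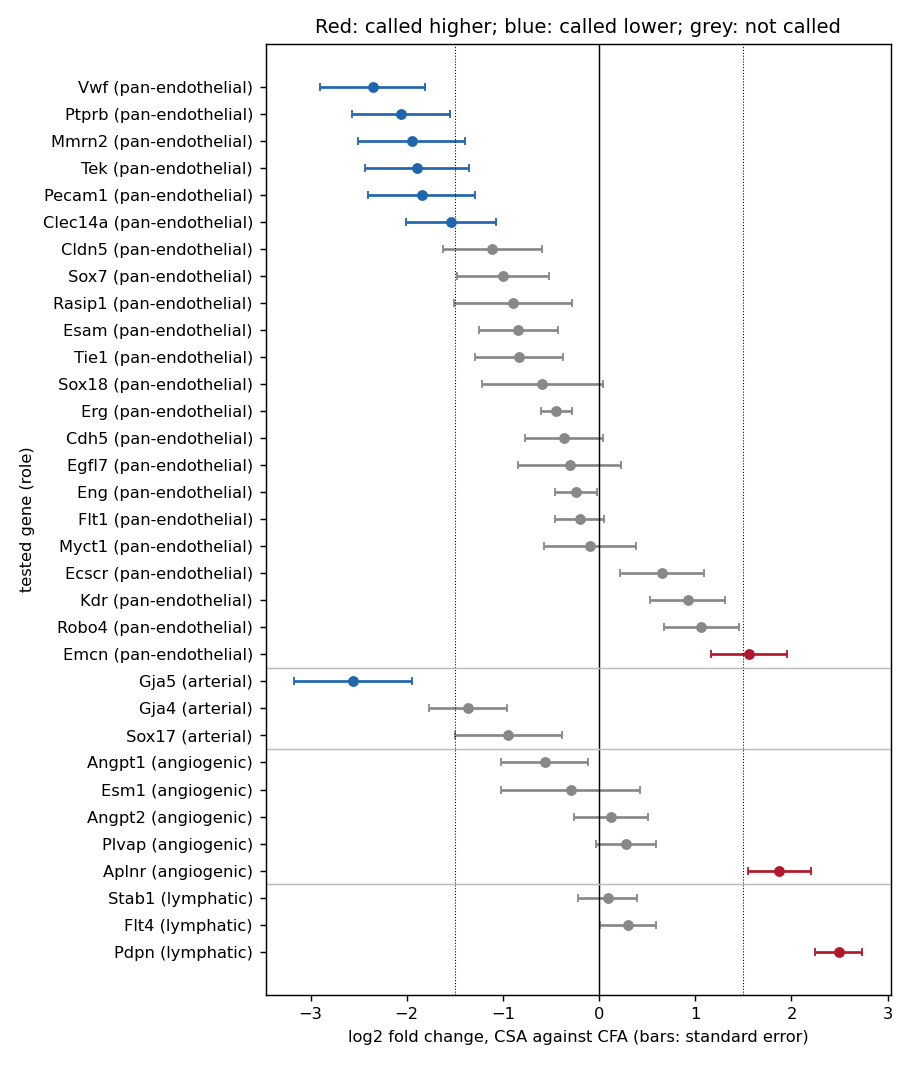
Log2 fold change of CSA against CFA (horizontal axis, bars standard error) for the 33 tested genes, ordered within each role (vertical axis), with dotted lines at the limit of 1.5. The values run from -2.56 for Gja5 to 2.49 for Pdpn, and Vwf at -2.36 and Emcn at 1.56 mark the ends of the pan-endothelial genes.

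Of the 3 arterial genes, 1 was called lower and none higher, and for all 3 every CSA mouse was below every CFA mouse, beside 8.27% of all tested genes called lower and 25.1% with such a gap. Gja5 (ENSMUSG00000057123, chr3:96904693-97077416), a connexin of arterial endothelial gap junctions, measured 20.6, 10.3 and 35.2 FPKM in CFA and 3.41, 3.07 and 3.24 in CSA. It measured 30.2, 5.13 and 28.8 in CFS and 31.8, 27.0 and 21.0 in CSS, so the 3 CSA values were the lowest of the 12. The mean of CSA was 14.7% of that of CFA, and the log2 fold change was -2.56 ± 0.61 (SE; limma, Benjamini-Hochberg adjusted p = 0.00645).

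Gja4, the connexin found with it in arterial endothelium, measured 49.3, 37.5 and 57.1 FPKM in CFA and 22.5, 23.3 and 11.6 in CSA. The groups did not overlap and the limma test gave an adjusted p of 0.0204, but the log2 fold change of -1.37 ± 0.41 did not reach the limit of 1.5. Gja4 was called lower when CFA 72, CSA 01 or CSA 02 was left out. Sox17, a SOX factor of arterial endothelium, measured 7.20, 6.27 and 11.7 in CFA and 4.86, 5.56 and 2.63 in CSA (log2 -0.95 ± 0.56, limma adjusted p = 0.201). Exons of other genes cover 16.9% of the exonic bases of Sox17 and 2.87% of those of Gja5, and how the fragments of such bases were assigned is not given in the sources used here.

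Of the 6 angiogenic genes, 5 were tested and 1 was called (20%, beside 17.2% of all tested genes). It was Aplnr, the receptor for apelin on sprouting endothelium. Aplnr (ENSMUSG00000044338, chr2:85136225-85139923) measured 5.45, 4.69 and 5.25 FPKM in CFA and 24.9, 17.0 and 16.3 in CSA, with 1.58, 1.55 and 2.70 in CFS and 1.06, 1.79 and 0.646 in CSS. The CSA mice were above all others, and the CFA mice were in turn above all saline mice. The log2 fold change of CSA against CFA was 1.87 ± 0.32 (SE; limma, Benjamini-Hochberg adjusted p = 0.000857). Its ligand Apln did not pass the filter on low values and was not tested, with 0.452, 0.853 and 0.135 in CFA and 3.38, 3.16 and 0.705 in CSA, so CSA 03 lay inside the range of CFA.

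Esm1, a proteoglycan secreted by sprouting tip cells, varied widely among mice of a group. It measured 0.877, 1.81 and 0.857 FPKM in CFS, 2.44, 2.47 and 4.93 in CSS, 18.6, 13.1 and 2.05 in CFA, and 4.27, 5.08 and 12.6 in CSA. CSA and CFA overlapped (log2 -0.29 ± 0.72, limma adjusted p = 0.777), and its sign depended on which mice were included. The angiopoietins were not called: Angpt1, which activates the Tek receptor, had 1.74 ± 1.25 in CFA and 1.05 ± 0.535 in CSA, with 14.2% of its exonic bases shared with Gm17473, and Angpt2, which can oppose it, had 16.2 ± 10.2 and 15.9 ± 3.40. Plvap, which forms the diaphragms of fenestrae and caveolae, had 40.2 ± 1.31 and 51.1 ± 17.6 (log2 0.28, limma adjusted p = 0.502).

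Of the 4 lymphatic and scavenger genes, 3 were tested and 1 was called higher, beside 8.95% of all tested genes called higher. Pdpn (ENSMUSG00000028583, chr4:143267431-143299564), the mucin-like podoplanin, measured 8.79, 11.8 and 5.69 FPKM in CFA and 38.9, 43.7 and 63.7 in CSA. It lay between 6.85 and 7.47 in CFS and between 5.19 and 5.6 in CSS, so the lowest CSA value was over every other mouse. The mean of CSA was 5.57 times that of CFA, and the log2 fold change was 2.49 ± 0.24 (SE; limma, Benjamini-Hochberg adjusted p = 1.95e-05).

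The other lymphatic and scavenger genes were not called. Flt4, the receptor for VEGF-C, measured 2.61, 3 and 3.28 FPKM in CFA and 5.52, 2.77 and 3.19 in CSA, which overlapped (log2 0.30 ± 0.29, limma adjusted p = 0.444). Prox1, the transcription factor that specifies lymphatic endothelium, was too low to be tested, with 0.224, 0.550 and 0.551 in CFA and 1.70, 0.438 and 1.33 in CSA. Stab1, a scavenger receptor, had 32.3 ± 4.85 and 35.8 ± 12.1 (log2 0.09, limma adjusted p = 0.837). Of 5 markers of lymphatic endothelium 3 were tested and 0 were called, with Lyve1 at a log2 fold change of -0.87 (limma adjusted p = 0.0367) and Mmrn1 at 0.29. Their summed level was 20.4 to 33.1 FPKM in CFA and 13.5 to 26.5 in CSA, Ccl21a was at most 0.467 in every mouse, and no lymphatic marker of the list was at 0 in all 12.

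**Figure D3:**
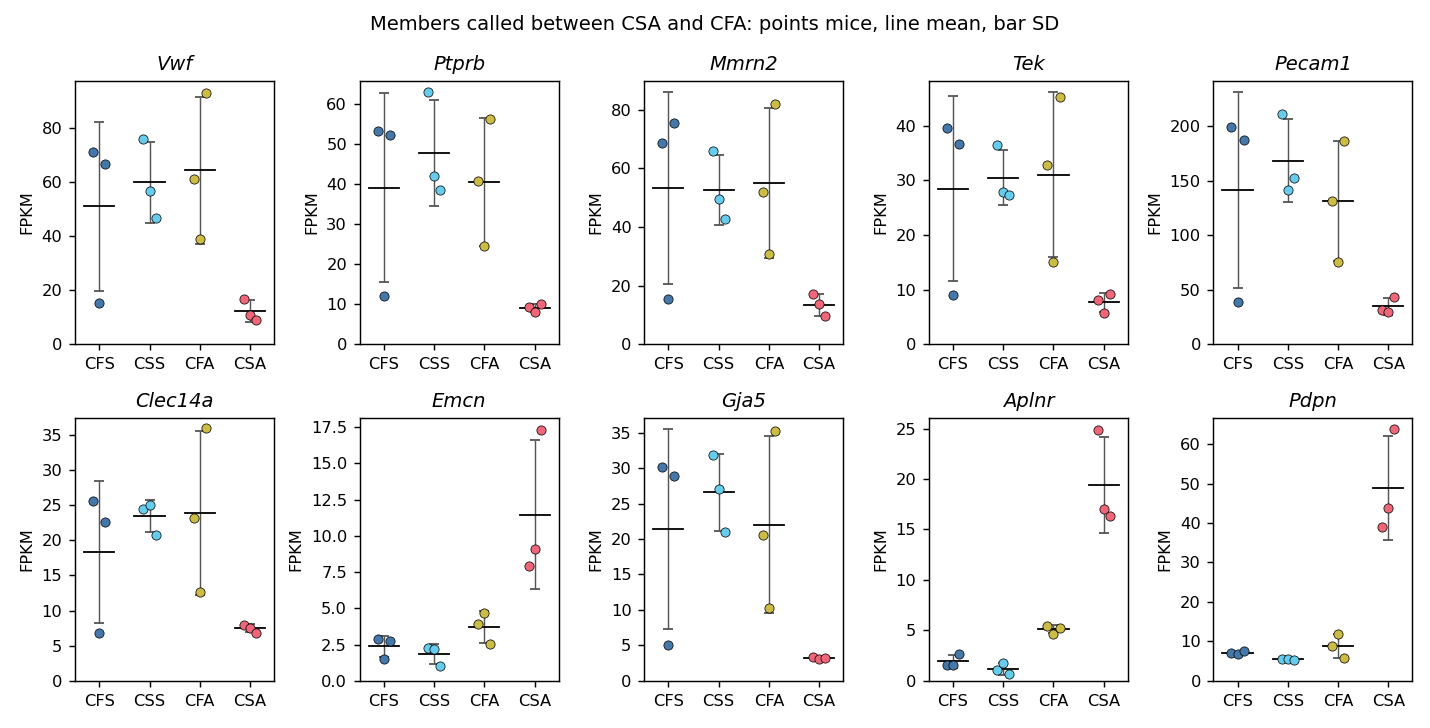
FPKM (vertical axes, linear and starting at 0) of the 10 genes called between CSA and CFA, with 1 point per mouse, the group mean as a line and the SD as a bar. The CSA points lie under the CFA points for Vwf, Ptprb, Mmrn2, Tek, Pecam1, Clec14a and Gja5 and over them for Emcn, Aplnr and Pdpn, and the lowest CFS point of the 7 lower genes is CFS 69 each time.

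Leaving out CFS 69 kept all 10 calls, but a CFS mouse enters this comparison only through the shared spread and the filter. Its removal could not move these fold changes, so this says little about the calls. With a pseudocount of 1, Clec14a (log2 -1.44) and Emcn (log2 1.36) were lost, and Clec14a also after rescaling to library sums (log2 -1.47). Leaving out CSA 03 kept 8 and lost Clec14a (log2 -1.48) and Emcn (log2 1.22), both through the limit on the fold change. Within CFA, mouse 74 was the highest for 26 of 35 members and mouse 72 the lowest for 22. Without CFA 71 the calls of Clec14a, Pecam1 and Tek were lost, and without CFA 74 those of Clec14a, Emcn, Mmrn2, Pecam1 and Tek. Pecam1 was also lost without CSA 01, and Pecam1 and Tek without CSA 02. Vwf, Ptprb, Gja5, Aplnr and Pdpn were called with any 1 mouse left out.

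Markers of other cells of the wall moved with these genes, and their part in the result was not tested. All 5 smooth muscle markers were called lower in CSA than in CFA, with a summed level of 5210 to 8091 FPKM in CFA and 776 to 913 in CSA. Tagln, which is among them, shares 67.9% of its exonic bases with Pcsk7 and Gm48529. Of 8 macrophage markers 7 were called higher, with sums of 331 to 699 in CFA and 2298 to 2534 in CSA. Of 5 adipocyte markers 2 were called lower, with sums of 298 to 854 and 92.0 to 296. Of 5 pericyte markers 2 were lower, with sums of 761 to 1427 and 216 to 243. Of 5 fibroblast markers 0 were called, with sums of 821 to 916 and 986 to 1489, but they went both ways, 3 up and 2 down. Lum had 195 ± 33.4 in CFA and 527 ± 86.3 in CSA, while Dpt had 264 ± 35.3 and 122 ± 26.7. A limma adjusted p under 0.05 was reached by 3 of these 5, all within the limit on the fold change. Of 5 platelet markers 0 were called, with sums of 35.7 to 49.3 and 24.0 to 54.4, and 4 mesothelium markers summed to at most 1.03 in either group. Lymph node stroma was at or near 0, with Glycam1 at 0.670 or less and Madcam1 at 0.591 or less in every mouse, apart from Cxcl13 at 2.72 ± 2.22 in CFA and 6.65 ± 4.04 in CSA (limma adjusted p = 0.118). Against CSS, at 0.818 ± 0.552, Cxcl13 was called higher in CSA (log2 2.83, limma adjusted p = 0.00356), and its interaction term was 2.82 (limma adjusted p = 0.0385). None of these lists had a marker at 0 in all 12 mice. Summed over the members, the 22 pan-endothelial genes gave 510 to 952 in CFA and 315 to 452 in CSA, the 3 arterial genes 54 to 104 and 17.5 to 32.0, the 6 angiogenic genes 69.6 to 78.0 and 82.9 to 114, and the 4 lymphatic and scavenger genes 40.0 to 47.2 and 88.9 to 90.0. The last 2 differences rested on 1 gene each: without Pdpn the other 3 lymphatic and scavenger genes summed to 31.2 to 41.5 in CFA and 26.3 to 50.0 in CSA, and without Aplnr the other 5 angiogenic genes to 64.9 to 72.6 and 66.6 to 89.2, and both overlapped. The pan-endothelial and arterial sums were not taken again without their called genes. Whether those differences rested on the called genes was therefore not tested.

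The shift between genes can also be read against Cdh5 within each aorta, a scale chosen after the values had been seen and given as a description without a test. For Gja5 the ratio to Cdh5 was 0.318 to 0.614 in CFS, 0.614 to 0.662 in CSS, 0.289 to 0.599 in CFA and 0.0756 to 0.101 in CSA. CFS 69, which was low for nearly every endothelial gene, had a ratio of 0.318 for Gja5, 0.941 for Vwf and 0.743 for Ptprb, above all CSA mice, whose ratios were 0.278 to 0.370 for Vwf and 0.208 to 0.310 for Ptprb. On this scale the 3 CSA mice were below all 9 others for 9 of 34 members, namely Pecam1, Tek, Vwf, Sox7, Mmrn2, Ptprb, Clec14a, Gja4 and Gja5, beside 10.4% of all tested genes. They were above all 9 others for 4 members, namely Emcn, Ecscr, Aplnr and Pdpn, beside 10.3%. For Aplnr the ratio was 0.507 to 0.551 in CSA and 0.0894 to 0.132 in CFA, and for Ecscr 0.523 to 0.832 and 0.336 to 0.362.

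**Figure D4:**
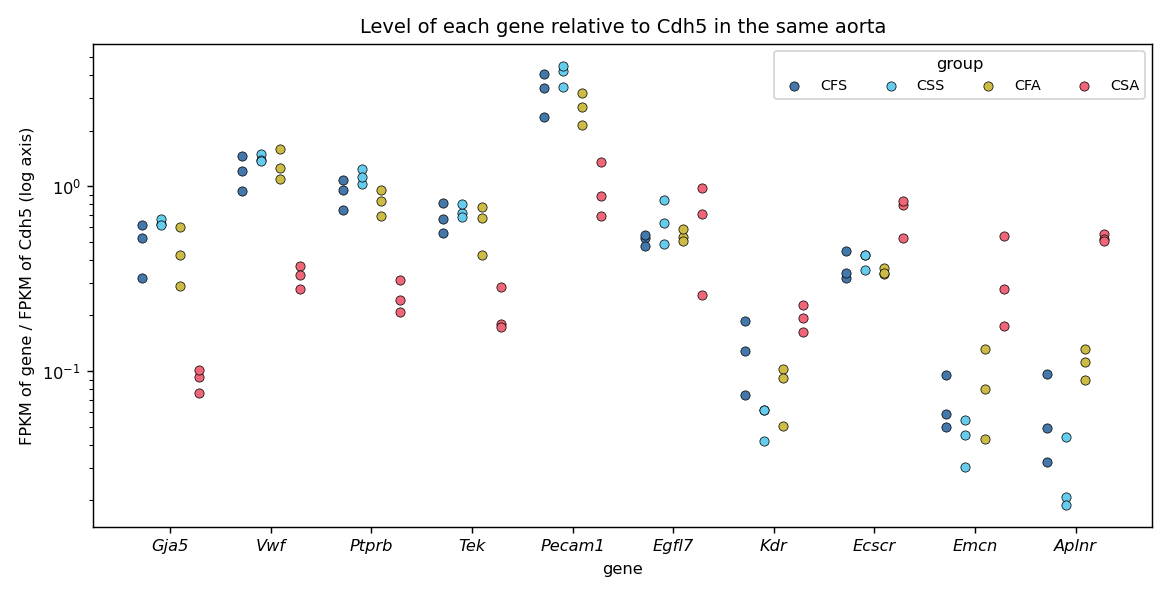
FPKM of each of 10 genes divided by the FPKM of Cdh5 in the same aorta (vertical axis, logarithmic), with 1 point per mouse and the groups CFS, CSS, CFA and CSA side by side for each gene (horizontal axis). CSA points lie under all others for Gja5, Vwf, Ptprb, Tek and Pecam1 and over all others for Ecscr, Emcn and Aplnr, while Egfl7 overlaps in every group.

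The second comparison asked what Ang II infusion changed in CCN2SMCΔ aortas (CSA against CSS), and it shares the 3 CSA mice with the first. Of the 33 tested members, 8 were lower and 4 were higher, which is 36.4% called, beside 20.3% of all tested genes, 9.36% lower and 10.9% higher. The 7 genes lower against CFA were lower here as well, with log2 fold changes of -2.31 for Vwf, -2.35 for Ptprb, -1.99 for Tek, -2.28 for Pecam1, -1.97 for Mmrn2, -1.64 for Clec14a and -2.98 for Gja5. Sox17 was the eighth, with 13, 9.41 and 14.1 FPKM in CSS against 4.86, 5.56 and 2.63 in CSA (log2 -1.51 ± 0.56, limma with Benjamini-Hochberg adjustment, adjusted p = 0.045). That call was lost when CSS 54, 55 or 56, CFA 71, 72 or 74, or any CSA mouse was left out, with a pseudocount of 1, with no filter, under both rescalings and under eBayes without trend or robust settings.

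Among the genes that were higher, Aplnr had a log2 fold change of 4.02 ± 0.32 against CSS (limma, Benjamini-Hochberg adjusted p = 3.75e-06), Pdpn one of 3.11 ± 0.24 (adjusted p = 3.26e-06) and Emcn one of 2.56 ± 0.39 (adjusted p = 0.000304). Kdr was added here, with 3.13, 2.52 and 1.43 FPKM in CSS and 8.69, 5.37 and 7.29 in CSA (log2 1.59 ± 0.39, adjusted p = 0.00593), and it was lost without CSS 56 or CSA 01 and with a pseudocount of 1. Groups did not overlap for 15 lower and 6 higher members, beside 29.1% and 26.3% of all tested genes. Cldn5 had 58.7 ± 7.46 in CSS and 22.9 ± 11.3 in CSA, with a log2 fold change of -1.5 that stayed just within the limit (limma adjusted p = 0.0335). Without CSA 01 or CSA 02, Cldn5 and Gja4 were called lower, and Gja4 also without CSS 55. Rasip1 was called lower without CSA 01, and Robo4 higher without CSS 54 or CSA 03. Markers of other cells moved in this comparison too, and their part was not tested: all 5 smooth muscle markers were called lower, with sums of 7413 to 8366 in CSS, and 7 of 8 macrophage markers higher, with sums of 271 to 335 in CSS. Of the 5 pericyte and the 5 adipocyte markers 2 each were lower, of the 5 fibroblast markers 1 was higher, and of the 5 platelet markers 0 were called.

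Under saline, the genotypes were compared as CSS against CFS, and 0 of 33 members were called by limma, beside 0.0136% of all tested genes. At an unadjusted p under 0.05 there were 4 members and 924 of all tested genes. The 4 were Erg, higher in CSS at 44.2 ± 3.17 FPKM against 30.0 ± 3.05, and Kdr, Aplnr and Angpt2, at log2 differences of -0.89, -0.75 and -0.89 (limma adjusted p = 0.489 for Erg and 0.768 for the others). CSS and CFS overlapped for the 7 genes that were lower in CSA, and without exception their CFS range was widened by CFS 69. Pdpn had 5.46 ± 0.234 in CSS and 7.13 ± 0.312 in CFS, ranges that did not overlap (log2 -0.38, limma adjusted p = 0.949). Such gaps were seen for 2 lower members and 2 higher members, beside 9.31% and 11.1% of all tested genes.

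In CCN2fl/fl aortas the effect of Ang II was compared as CFA against CFS, and 0 of 33 members were called by limma, beside 0.0273% of all tested genes. At an unadjusted p under 0.05 there were 3 members and 1383 of all tested genes, and these 3 were also the members whose groups did not overlap, all of them higher in CFA, beside 9.44% of all tested genes. Aplnr was 5.13 ± 0.395 FPKM in CFA and 1.94 ± 0.654 in CFS (log2 1.40 ± 0.32, limma with Benjamini-Hochberg adjustment, adjusted p = 0.148). Erg was 41.8 ± 6.34 against 30.0 ± 3.05 (log2 0.47, adjusted p = 0.396). Esm1 had a log2 difference of 2.74 ± 0.72 (adjusted p = 0.2), and 3.69 without CFA 74, the CFA mouse in which it was lowest (adjusted p = 0.0101).

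Whether the genotype effect differed between Ang II and saline was tested by the interaction term, the difference of CSA from CFA minus that of CSS from CFS. Of the 33 tested members, 5 passed below and 5 above, beside 15.2% of all tested genes, 7.31% below and 7.89% above. Below were Gja5 at -3.22 ± 0.87 (SE; limma, Benjamini-Hochberg adjusted p = 0.0186), Vwf at -2.85 ± 0.77 (adjusted p = 0.0186), Ptprb at -2.60 ± 0.72 (adjusted p = 0.0218), Pecam1 at -2.40 ± 0.79 (adjusted p = 0.0445) and Clec14a at -2.10 ± 0.66 (adjusted p = 0.0367). Above were Pdpn at 2.87 ± 0.35 (adjusted p = 0.000237), Aplnr at 2.62 ± 0.46 (adjusted p = 0.00192), Emcn at 1.94 ± 0.55 (adjusted p = 0.0243), Kdr at 1.81 ± 0.55 (adjusted p = 0.0315) and Robo4 at 1.67 ± 0.55 (adjusted p = 0.0458). Tek, at -2.25 ± 0.76, and Mmrn2, at -2.21 ± 0.78, gave adjusted p-values of 0.0501 and 0.0595. Erg, at -1 ± 0.23, passed the limma test (adjusted p = 0.00914) but not the limit on the fold change. By the same term all 5 smooth muscle markers, 2 of 5 pericyte markers and 1 of 5 adipocyte markers passed below. Those above were 7 of 8 macrophage markers and 1 of 5 fibroblast markers, and the part of all these markers was not tested. All 10 calls were kept without CFS 69. Pecam1 and Robo4 were lost after rescaling to library sums and under eBayes without trend or robust settings, both also with Clec14a and Kdr when no filter was set, Kdr and Robo4 with a pseudocount of 1, and Emcn, Kdr and Robo4 were not tested at a mean FPKM of at least 5. Gja5, Vwf, Aplnr and Pdpn were called with any 1 mouse left out, and the other 6 were each lost in at least 1 such fit. The count above fell to 2 without CFS 70 or CSS 56 and to 3 without CFS 68, CFA 71, CFA 72 or CSA 01, and the count below was 2 without CSS 54, 3 without CSS 56, CFA 71, CFA 74, CSA 01 or CSA 02, and 8 without CFS 70.

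The wider pathways were read from lists of related genes, each compared between CSA and CFA by limma with Benjamini-Hochberg adjustment. Of 32 other endothelial genes, 31 were tested and 1 was called, Nos3, the endothelial nitric oxide synthase, which was lower at 4.91 ± 2.91 FPKM in CSA against 22.8 ± 9.11 in CFA (log2 -2.37, adjusted p = 0.0207), and which shares 32.3% of its exonic bases with Atg9b and Gm15587. That is 3.23% called, beside 17.2% of all tested genes, 8.95% higher and 8.27% lower. The count of lower genes was 2 when the fit held only the groups compared, and it was 0 without CFA 71, CFA 74 or CSA 03, 2 without CSA 01, 3 without CFS 69 and 4 without CFA 72. Without CSA 03, Sh2d3c, an adaptor protein, was called higher (log2 1.79, limma adjusted p = 0.000302). The median log2 fold change of the list was -0.39.

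The list of 16 other arterial genes held 5 lower and 1 higher (37.5% called, beside the same 17.2%), with a median of -0.86. Gkn3, a gene of arterial endothelium, fell from 20.9 ± 11.9 FPKM in CFA to 1.71 ± 1.48 in CSA (log2 -4.37, limma adjusted p = 0.00856) and was at 0 in CSA 03. Cxcr4, a chemokine receptor that arterial endothelium shares with leukocytes, rose from 2.48 ± 1.87 to 48.8 ± 9.05 (log2 4.46, limma adjusted p = 1.33e-05). The other lower genes were Efnb2, an arterial ephrin, Hey2, a target of Notch, Bmx, a kinase, and Fbln5, a protein of elastic fibres. Several of them are also known in smooth muscle, whose markers moved as given above.

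Of 14 venous and capillary genes, 2 were higher and 0 lower (14.3% called, beside 17.2% of all tested genes), both leukocyte adhesion molecules: Sele rose from 1.41 ± 0.861 FPKM to 4.86 ± 1.66 (log2 1.81, limma adjusted p = 0.00504) and Vcam1 from 11.7 ± 1.60 to 40.9 ± 6.80 (log2 1.79, adjusted p = 0.00236). Of 20 other lymphatic genes 18 were tested, with 1 higher, Thy1, and 2 lower (16.7% called), among which Itga9, an integrin subunit of lymphatic valves that smooth muscle also expresses, fell from 108 ± 17.0 to 16.8 ± 0.992 (log2 -2.66, limma adjusted p = 4.27e-07). Of 16 ligands and partners of the VEGF, angiopoietin and apelin receptors 13 were tested and 2 called (15.4%). Angpt4, a ligand of Tek, was lower at 4.73 ± 1.89 in CSA against 21.8 ± 6.26 in CFA (log2 -2.22, limma adjusted p = 0.000232), and Slit2, a ligand of Robo receptors, was higher at 4.03 ± 0.819 against 1.3 ± 0.0546 (log2 1.54, adjusted p = 0.000186). Vegfa was not called, at 16.1 ± 5.30 and 17.1 ± 1.59 (log2 -0.14, limma adjusted p = 0.736). With a pseudocount of 1, Sele (log2 1.3) and Slit2 (log2 1.12) were no longer called, nor was Sema3a, a semaphorin and the other lower gene of the lymphatic list (log2 -0.95), in each case through the limit on the fold change, and none of the 3 reached a mean FPKM of 5 over the 12 mice. Bmx was not called without CFA 71 or CFA 74. Of these small counts, without CFA 74 the venous and capillary list held 1 higher gene and the lymphatic list 0, without CFA 72 the lymphatic list held 2 higher and the ligand list 2 lower genes, without CSA 01 the ligand list held 2 lower, without CFA 71 the venous and capillary list held 1 lower, and without CSA 03 the ligand list held 0 higher genes.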

How the data were processed

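RNA-Seq was available for 12 abdominal aortas, 3 per group, with group and mouse number taken from the sample labels and 0 columns of the table left unused. The authors deposited FPKM for 55092 features, of which 54532 carry an Ensembl identifier; symbols for 54409 came from GENCODE M21 on GRCm38. The submitters' processing notes name HISAT2 2.0.5, StringTie 1.3.3b, featureCounts 1.5.0-p3 and mm10, with no role or order, and strand handling is not given in the sources used here. The deposited FPKM already had equal median log ratios in all 12 libraries, by a scaling whose origin is not given in the sources used here. Fragments were recovered with exon lengths: 98.0% to 98.5% of values under 100 fragments were whole within 0.05, and their sum was taken as depth, which limits counting error only.

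The tests used limma 3.58.1 under R 4.3.3 (trend and robust settings) on log2(FPKM + 0.1), 1 coefficient per group, no covariate, 14676 features with FPKM of at least 1 in at least 3 mice, and Benjamini-Hochberg adjustment over all of them. Each library is 1 mouse, so p-values rest on the spread among 3 mice per group. Calls needed a log2 fold change past 1.5 either way and an adjusted p under 0.05. Data were simulated for CSA against CFA over 14123 genes. Of these, 88 of 100 genes changed 4-fold and 100 of 100 changed 8-fold were called, with 7 false calls. Few genes were changed in the simulation, while 17.2% of all tested genes were called in the real comparison. The spread given to the simulated mice is not stated here. The rates therefore describe the simulated data and were not shown to hold for the real mice. The members and the related and marker lists were chosen with earlier results of these data known. All members are named; of each related list, the called genes with the largest log2 changes are named, and Vegfa was added after its values were seen. Promoters came from RefSeq. Alternatives changed the pseudocount, filter, scaling, variance settings, samples and fold limit.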

Additional observations from a re-analysis of the deposited data

Results flagged for a closer look

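For 10 genes the genotype effect differed between Ang II and saline by the interaction term of the limma model. The difference of the effects, on the log2 scale, was -2.40 for Pecam1, -2.85 for Vwf, -2.60 for Ptprb, -2.10 for Clec14a and -3.22 for Gja5. It was 1.81 for Kdr, 1.94 for Emcn, 1.67 for Robo4, 2.62 for Aplnr and 2.87 for Pdpn. Groups of 3 mice are too small for a test of outlying samples.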

How the results depend on the processing

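No paired analysis was possible because the groups share no mouse numbers. Of the called genes, Vwf, Ptprb, Gja5, Aplnr and Pdpn passed in CSA against CFA under every alternative that was run; a pseudocount of 1 ended the calls of Clec14a and Emcn, rescaling to library sums ended that of Clec14a, and Emcn was not tested at a mean FPKM of at least 5. With 1 mouse left out at a time, the genes called lower in CSA against CFA ranged from 3 to 8, those higher in CFA against CFS from 0 to 1 (Esm1, without CFA 74), those with a positive interaction from 2 to 5 and those with a negative one from 2 to 8. The low counts came without CFA 74 (3 lower against CFA) or CFA 71 (4 lower), without CFS 70 or CSS 56 (2 positive), and without CSS 54 (2 negative); without CFS 70 there were 8 negative.

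The positive interactions were 3 with a pseudocount of 1, 3 with no filter and 2 with a mean FPKM of at least 5, where genes of low level are not tested. The negative ones were 3 with no filter. The genes higher in CSA than CSS were 6 with no filter, which adds Apln and Prox1 to the genes tested, against 4 with it. The genes higher in CSA than CSS were 2 with a mean FPKM of at least 5. The cause was not tested for the others.

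A few uncalled genes changed sign with 1 mouse left out. In CSA against CFA, the log2 fold change of Myct1 ranged from -0.37 to 0.053 (positive without CFA 71, and 0.04 without CFA 74), that of Esm1 from -1.25 to 0.31 (0.31 without CFA 71, 0.06 without CFA 72 and 0.0030 without CSA 01), that of Angpt2 from -0.16 to 0.60 (-0.07, -0.16 and -0.04 without CFA 71, CFA 72 and CSA 03), that of Stab1 from -0.071 to 0.42 (negative without CSA 01 or CSA 02, at -0.070 for the latter), and that of Egfl7 from -0.64 to 0.34 (positive without CSA 03). Against CSS, Plvap ranged from -0.0084 (without CSS 56) to 0.55 and Egfl7 from -0.69 to 0.28 (positive without CSA 03). Rescaling to library sums moved the median of all genes by 0.08 and upper-quartile scaling by -0.03 (log2). Apln and Prox1 were tested with no filter alone: their log2 differences of CSA from CSS were 2.56 and 1.55 (limma adjusted p = 0.0190 and 0.0317) and from CFA 2.07 and 1.11 (limma adjusted p = 0.0589 and 0.126).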
